A study of Mus musculus with 4 samples.

Results

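The genes described here are 10 regulators of the G1 phase of the cell cycle, taken as a list: the D-type cyclins Ccnd1, Ccnd2 and Ccnd3, the E-type cyclins Ccne1 and Ccne2, the kinases Cdk4 and Cdk6, and the inhibitors Cdkn1a, Cdkn1b and Cdkn2a. A STAT3 ChIP-seq peak was assigned to a gene when its centre lay inside the gene or within 50 kb of either end, in RefSeq coordinates of the mouse genome (GRCm38, the mm10 build). By this rule the 10 genes, of 21883 protein-coding genes, held 69 of the 88765 peaks of the sham list and 31 of the 36249 peaks of the list after spinal cord injury (SCI). Both libraries came from cells dissociated from the epicentre tissue of C57BL/6 mice, pooled from 3 mice each, and immunoprecipitated with a rabbit STAT3 antibody. Sham mice had a laminectomy alone at thoracic level 9, and in SCI mice the exposed cord was also contused there with a force of 60 kdyn (a moderate injury), in both cases 7 days before collection. Neither the age of the mice nor a sort for 1 cell type is given in the labels, so the cell types behind the lists are not known. With 1 library per condition there is no replicate, and no difference between sham and SCI below has a test or a replicate check. Peak lists hold no expression values, so the labelled cells could not be checked by marker genes.

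Cyclins of the D type bind the kinases encoded by Cdk4 and Cdk6 and start the phosphorylation of the retinoblastoma protein, which releases E2F factors. Cyclin E then activates the kinase encoded by Cdk2 and carries the cell into S phase. The inhibitors of the Cip and Kip family (encoded by Cdkn1a and Cdkn1b) bind cyclin and kinase complexes, and Cdkn2a encodes both an inhibitor of the D-type kinases and the unrelated protein ARF from separate starts. STAT3 is a cytokine-activated transcription factor, and Ccnd1 and Cdkn1a are among its textbook target genes. Astrocytes, microglia and other cells of the injured cord are known to divide after injury.

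RefSeq promoter sequences (GRCm38.p6, 250 bases before to 50 after each annotated start) were at hand for 10 starts of 7 of the genes and not for Ccnd1, Ccnd2 and Ccne2. The pairs of Cdkn2a and Cdkn1a are shown, because the upstream start of Cdkn2a was the one start of these 10 with a peak centre within 1 kb, while the peak nearest to a Cdkn1a start lay 7.85 kb away. Capitals mark CpG dinucleotides.
Cdkn2a upstream start, chr4:89294570-89294869, minus strand: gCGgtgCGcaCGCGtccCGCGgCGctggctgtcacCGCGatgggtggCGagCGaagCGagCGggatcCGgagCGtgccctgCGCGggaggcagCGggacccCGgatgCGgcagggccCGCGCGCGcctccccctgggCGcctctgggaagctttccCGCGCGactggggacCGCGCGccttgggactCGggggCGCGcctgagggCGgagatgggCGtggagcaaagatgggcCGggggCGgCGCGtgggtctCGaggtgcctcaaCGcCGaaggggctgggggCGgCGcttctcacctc
Cdkn2a downstream start, chr4:89282143-89282442, minus strand: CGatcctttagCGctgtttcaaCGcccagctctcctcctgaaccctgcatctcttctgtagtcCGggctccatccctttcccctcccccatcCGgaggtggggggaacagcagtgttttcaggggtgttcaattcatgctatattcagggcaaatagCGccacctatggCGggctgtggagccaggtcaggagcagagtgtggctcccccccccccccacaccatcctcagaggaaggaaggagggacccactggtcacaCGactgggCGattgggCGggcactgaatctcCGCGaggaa
Cdkn1a upstream start, chr17:29090729-29091028, plus strand: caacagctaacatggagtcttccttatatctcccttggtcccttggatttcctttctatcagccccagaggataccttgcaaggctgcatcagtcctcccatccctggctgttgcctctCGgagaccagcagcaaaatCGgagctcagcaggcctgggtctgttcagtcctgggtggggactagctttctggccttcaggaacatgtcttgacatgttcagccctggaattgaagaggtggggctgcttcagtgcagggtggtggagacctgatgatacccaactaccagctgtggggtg
Cdkn1a downstream start, chr17:29093519-29093818, plus strand: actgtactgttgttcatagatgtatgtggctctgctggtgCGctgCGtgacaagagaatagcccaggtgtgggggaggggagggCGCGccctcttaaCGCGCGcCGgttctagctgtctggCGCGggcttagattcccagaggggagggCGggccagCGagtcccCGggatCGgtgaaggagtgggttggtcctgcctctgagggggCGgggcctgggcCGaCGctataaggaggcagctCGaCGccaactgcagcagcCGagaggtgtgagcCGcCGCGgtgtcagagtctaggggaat
The upstream Cdkn2a promoter held 45 CpG and the downstream one 12, and for Cdkn1a the counts were 2 and 23. Over the 10 promoters of these genes the median was 25 CpG, against 7 over all 32851 promoters of the same length. The STAT motif TTCNNNGAA, which reads the same on both strands, was in 0 of the 10 promoters and in 8.30% of all promoters. Its narrower form TTCCNGGAA, which is a subset of the first, was also in 0 of the 10 and in 1.15% of all. This says only that these letters are not in these windows of 300 bases. No peak of either list overlapped any of the 10 windows. The share of all promoter windows overlapped by a peak was not counted, so this absence has no background. A sham peak centre lay within 1 kb of 1 of the 10 starts and an SCI peak of 0, against 6.82% and 2.94% of all starts in the promoter table.

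All 10 genes had a sham peak in the window and 9 had an SCI peak, and Ccnd2 was the gene without one. By the same rule, the share of all protein-coding genes with a peak was 95.6% for sham and 84.2% for SCI, so counts of 10 and 9 lie near the background. The median was 6.5 sham peaks per gene, against 5 over all protein-coding genes, and 3 SCI peaks, against 2. Per 100 kb of window the median was 4.71 sham and 2.32 SCI peaks, against 3.91 and 1.58. Sham peaks outnumbered SCI peaks at 8 genes, and Ccnd1 and Cdkn1a had equal numbers. Over all protein-coding genes, sham excess and equal numbers were not counted apart, so neither count has a background of its own. SCI peaks outnumbered sham peaks at 0 of the 10 and at 7.05% of all protein-coding genes. The ratio of sham to SCI peaks over the 10 genes was 2.23, and over the whole lists it was 2.45. With the sham list cut to its 36249 highest scores, the number in SCI, the genes held 34 sham peaks. SCI peaks then outnumbered sham peaks at 6 genes (Ccnd1, Ccne1, Cdk4, Cdk6, Cdkn1a and Cdkn2a) and at 35.3% of all protein-coding genes. Sham peaks remained in excess at Ccnd2, Ccnd3, Ccne2 and Cdkn1b. How many of all protein-coding genes kept a sham excess after this cut was not counted.

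Since longer genes have wider windows, each count was set beside protein-coding genes in the same length decile. Ccnd2, Ccnd3 and Cdk4 lay above the upper quartile of such genes in sham, and Cdk6 and Cdkn1a below the lower one. In SCI, Ccnd1, Ccnd3 and Cdkn2a lay above the upper quartile and Ccnd2 below the lower one. Ccnd3 was thus the one gene of the set above the upper quartile in both lists. The share of all protein-coding genes beyond these quartiles, in either list or in both, was not counted. Peak counts are whole numbers with ties, so that share cannot be read off the quartiles. These positions therefore have no background and are not read as a trait of the genes.

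**Figure D1:**
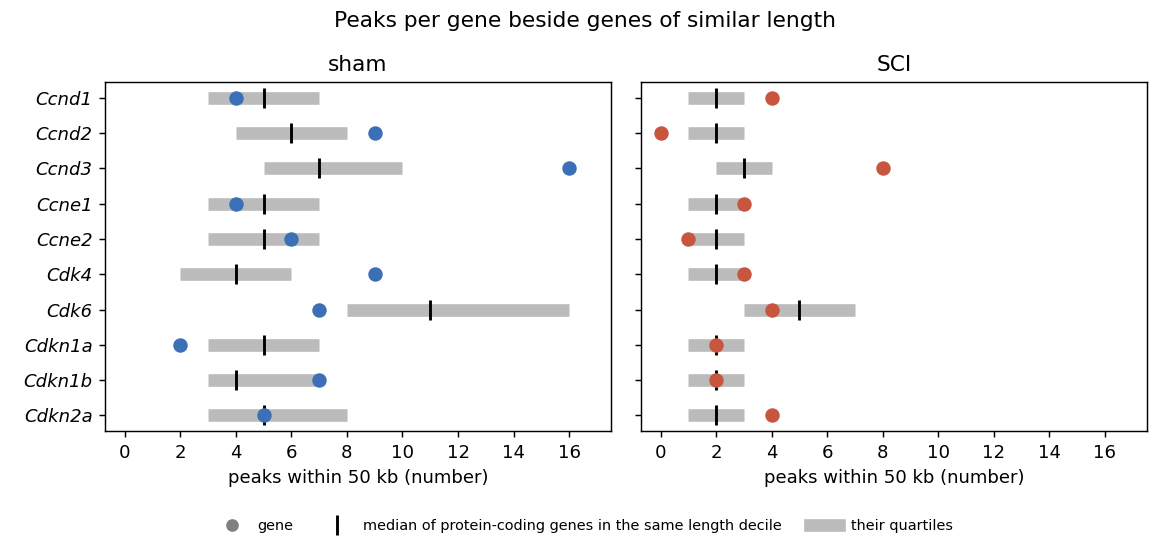
Number of peaks within 50 kb of each gene (points) in sham (left) and SCI (right), 1 library each, with the median (tick) and quartiles (grey bar) of protein-coding genes in the same length decile. Ccnd3 has 16 sham and 8 SCI peaks, above the quartiles in both panels, and Ccnd2 has 9 sham peaks and none in SCI.

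Ccnd3 held the most peaks of the 10 genes in both lists. This cyclin gene (gene ID 12445, chromosome 17, 47505051 to 47599689) had 16 sham peaks, 9 of them inside the gene, and 8 SCI peaks, 4 inside. Genes of its length had a median of 7 sham and 3 SCI peaks. The authors' deposited score of a peak is used here only to rank peaks within a list, with rank given as the top percent, since the scale of the lists may differ. The highest SCI peak of all 10 genes lay inside Ccnd3, at 47530974 to 47531137, with a score of 23.3 (top 1.99%). It overlapped a sham peak at 47531096 to 47531285 (score 15.4, top 16.1%) by 42 bp, with the centres 135 bp apart. The highest sham peak at Ccnd3 lay 30.0 kb outside the gene, at 47474950 to 47475139 (score 22.8, top 6.31%), and had no SCI counterpart. Inside the gene the highest sham peak was at 47565089 to 47565278 (score 19.2, top 9.82%), also without one.

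Another 3 positions at Ccnd3 had a peak in both lists. One inside the gene, where the predicted gene Gm41590 also lies, had a sham peak at 47545360 to 47545549 (score 11.3, top 28.8%) and an SCI peak at 47545264 to 47545427 (score 5.49, top 82.9%). One lay 36.3 kb outside, inside Usp49 (a ubiquitin protease gene) and the overlapping Gm20517. There the sham peak at 47635902 to 47636091 scored 18.2 (top 11.1%) and the SCI peak at 47635909 to 47636072 scored 13.7 (top 11.9%), with the centres 6 bp apart. The last lay 27.6 kb outside, with a score of 6.86 in sham (top 63.9%) and 7.82 in SCI (top 44.8%). The nearest peak to the upstream Ccnd3 start was a sham peak 3.23 kb downstream at the lowest score of the list, 5. The nearest SCI peak was 26.0 kb downstream of it.

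Ccnd1, the gene of cyclin D1, had 4 peaks in each list, and 1 position was shared. The gene (ID 12443, chromosome 7, 144929931 to 144939831) lies beside LTO1, which in the RefSeq table overlaps it at one end. The SCI peak at 144922079 to 144922242 lay inside LTO1, 7.77 kb outside Ccnd1, with a score of 22.5 (top 2.32%). No sham peak lay over it, and the nearest sham centre was 7498 bp away. The sham peak at 144930412 to 144930601 was the one peak inside Ccnd1, where LTO1 also lies, and it scored 8.18 (top 48.7%). The highest sham peak, at 144914568 to 144914757, lay 15.3 kb outside with a score of 22.7 (top 6.41%). The shared position, inside the predicted gene Gm39119, stood high in sham (144909260 to 144909449, score 19.2, top 9.77%) and low in SCI (144909320 to 144909483, score 5.48, top 82.9%). The other sham peak scored 15.1 and the other SCI peaks 8.17 and 8.84.

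Ccnd2, the gene of cyclin D2, had 9 sham peaks and no SCI peak within 50 kb. Sham peaks with no SCI peak in the window were found at 13.0% of all protein-coding genes. Of the 1191 protein-coding genes with 9 sham peaks, 4.79% had no SCI peak. The highest sham peak at Ccnd2 (ID 12444, chromosome 6, 127125162 to 127152188) lay 680 bp outside the gene, at 127124388 to 127124577, and scored 27.3 (top 3.76%). The next, 48.6 kb outside and inside Fgf23, a fibroblast growth factor gene, scored 17.4 (top 12.3%). The other 7 sham peaks scored between 5 and 6.92, and 2 of these lay inside Tigar, a metabolic phosphatase gene, and 4 inside the noncoding gene 9330179D12Rik. With the sham list cut to the SCI number of peaks, Ccnd2 kept the 2 highest. The nearest SCI peak, at 127211994 to 127212157, lay 59.9 kb away and scored 7.25 (top 51.2%), so the absence from SCI holds for the window of 50 kb and not for 100 kb.

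**Figure D2:**
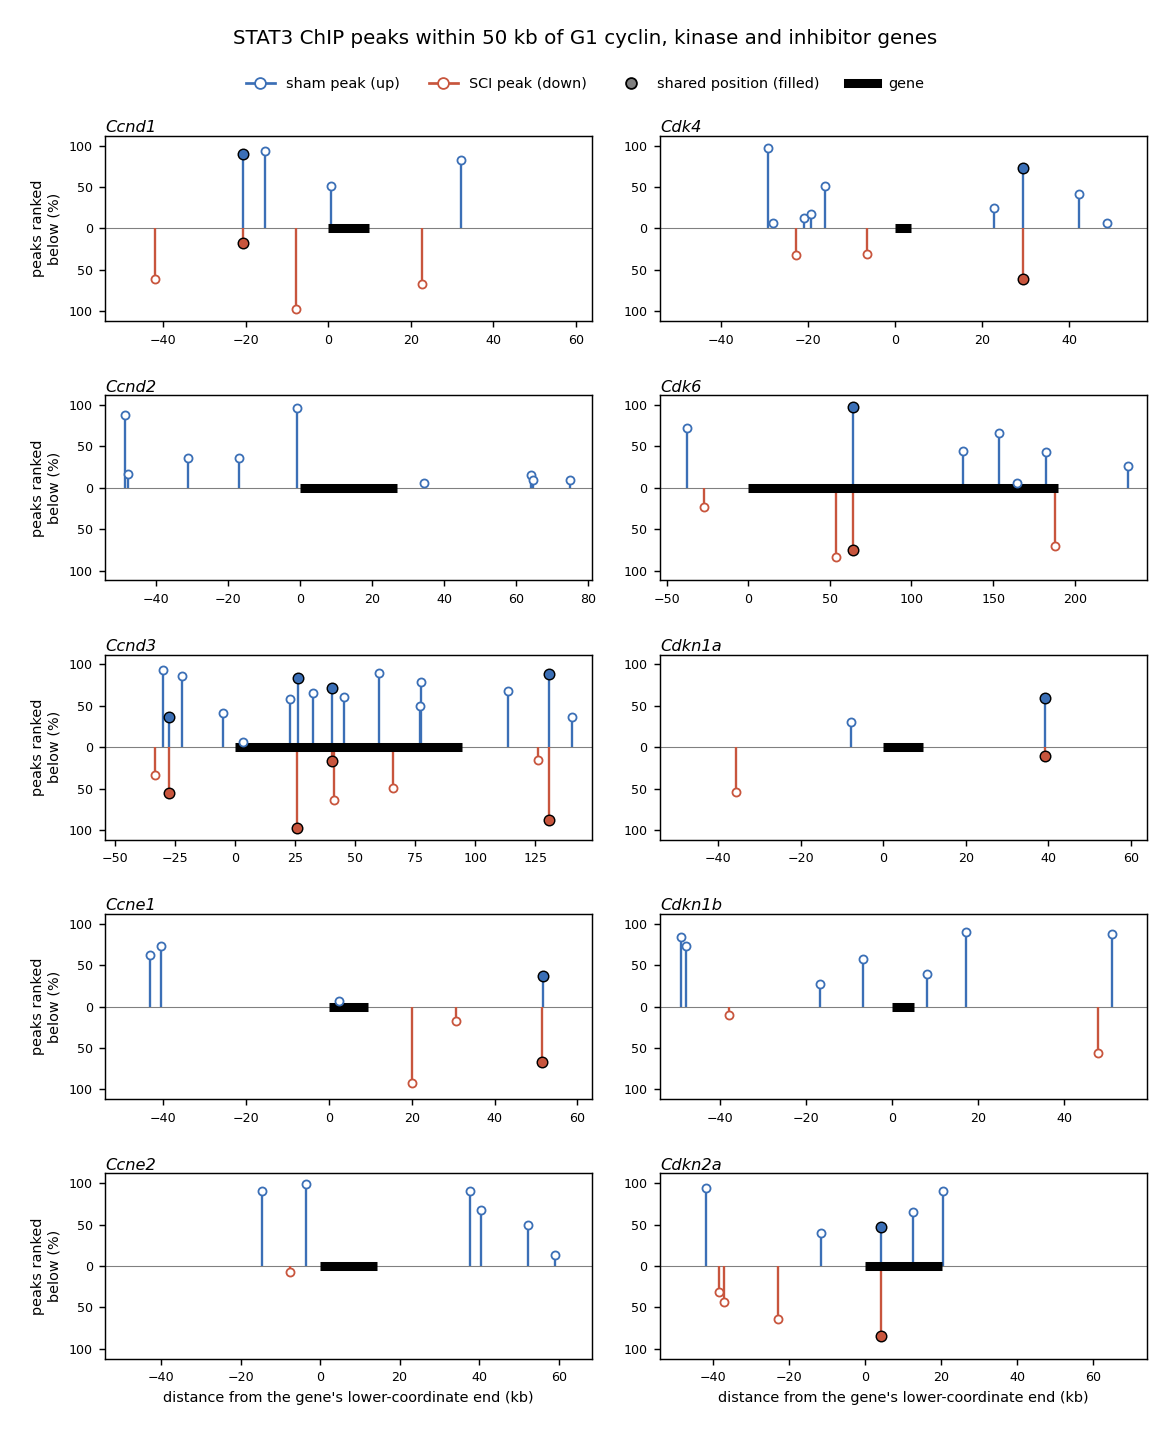
Peaks at each of the 10 genes by distance in kb from the end of the gene with the lower coordinate (black bar, gene). Stem height is the percent of the list ranked below the peak, upward for sham and downward for SCI, and filled points mark positions with a peak in both lists. Ccnd2 has stems in sham alone, and Ccnd3 has 4 filled positions in each direction.

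The E-type cyclin genes had 10 sham and 4 SCI peaks, and the highest sham peak of all 10 genes lay at Ccne2. Ccne2 (ID 12448, chromosome 4, 11190433 to 11204779) had 6 sham peaks and 1 SCI peak, none of them inside the gene. The sham peak at 11186804 to 11186993, inside A630034I12Rik and 3.53 kb outside Ccne2, scored 43.9 (top 0.638%). The SCI peak, at 11182731 to 11182894, was at the lowest score of 5 and lay 4086 bp from it. Sham peaks at 11175629 to 11175818 (score 19.7, top 9.13%) and, inside the neighbouring Integrator subunit gene Ints8, at 11228108 to 11228297 (score 19.4, top 9.58%) had no SCI counterpart either.

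Ccne1 (ID 12447, chromosome 7, 38097984 to 38107490) had 4 sham and 3 SCI peaks. Its highest peak was in SCI, at 38117897 to 38118060, with a score of 15.9 (top 7.62%) and 10.5 kb upstream of the annotated start. The 1 peak inside Ccne1 was a sham peak at 38100297 to 38100486 with a score of 5.01 (top 93.2%). The highest sham peak, 40.5 kb outside in the predicted gene Gm30684, scored 11.7 (top 27.1%). The shared position lay 42.0 kb outside the gene, with a score of 6.99 in sham (38149521 to 38149710, top 62.8%) and 8.95 in SCI (38149400 to 38149563, top 32.7%).

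Of the kinase genes, Cdk6 had 5 of 7 sham and 3 of 4 SCI peaks inside the gene, and Cdk4 none of its 9 sham and 3 SCI peaks. Cdk6 fills 65.5% of its window and Cdk4 3.62%, and whether this difference gives the contrast was not tested. Cdk6 (ID 12571, chromosome 5, 3341004 to 3531008) is the longest of the 10 genes, and genes of its length had a median of 11 sham and 5 SCI peaks. Its highest sham peak, at 3405368 to 3405557, scored 32.5 (top 2.08%), and an SCI peak lay over it at 3405370 to 3405533 (score 10.1, top 25.1%), with centres 11 bp apart. This position was 61.6 kb downstream of the annotated start, where the predicted gene Gm29868 also lies. The highest SCI peak at Cdk6, at 3394645 to 3394808, scored 12.1 (top 16.4%) and had no sham peak over it. No peak of either list lay within 30 kb of the annotated Cdk6 start.

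Cdk4 (ID 12567, chromosome 10, 127063535 to 127067288) is the shortest gene of the set and lies among many neighbours. Its highest sham peak, at 127034346 to 127034535, lay 29.1 kb outside, inside the methyltransferase gene Eef1akmt3, and scored 29.6 (top 2.88%). The nearest peak was in SCI, at 127057101 to 127057264 inside Marchf9, 6.35 kb upstream of the start, with a score of 6.11 (top 68.8%). The nearest sham peak was 16.0 kb upstream. The shared position lay inside Agap2, 25.6 kb from Cdk4, and was also the highest SCI peak there. It scored 11.9 in sham (127092909 to 127093098, top 26.3%) and 8.37 in SCI (127092836 to 127092999, top 38.6%). Of the 9 sham peaks, 6 scored between 5 and 7.28.

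Among the inhibitors, Cdkn2a had peaks inside the gene in both lists, and Cdkn1a and Cdkn1b had none inside in either. The gene fills 16.8% of the window at Cdkn2a, 8.88% at Cdkn1a and 4.88% at Cdkn1b. Cdkn2a (ID 12578, chromosome 4, 89274473 to 89294619, minus strand) had 5 sham and 4 SCI peaks. The sham peak at 89294987 to 89295176 lay 463 bp upstream of the upstream start, whose promoter is printed above, and scored 19.0 (top 10%). The nearest SCI peak to that start was 15.9 kb downstream. That peak, at 89278618 to 89278781, scored 12.4 (top 15.5%) and was shared with a sham peak at 89278663 to 89278852 (score 7.82, top 52.9%). It lay 3.49 kb downstream of the downstream start. A sham peak between both starts, at 89286974 to 89287163, scored 10.2 (top 34.3%) and was in sham alone. The highest sham peak at Cdkn2a, 42.0 kb outside at 89232457 to 89232513, scored 24.0 (top 5.47%) and was 57 bp wide, while the other 68 sham peaks at these genes had the usual 190 bp and all 31 SCI peaks the usual 164 bp.

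Cdkn1a, which encodes p21 (ID 12575, chromosome 17, 29090979 to 29100722), had the fewest sham peaks, with 2 in each list. The sham peak at 29083037 to 29083226 lay 7.85 kb upstream of the upstream start and scored 6.54 (top 69.3%). The shared position lay inside Rab44, 29.4 kb outside Cdkn1a, with a score of 9.29 in sham (29130079 to 29130268, top 40.2%) and 5.24 in SCI (29130083 to 29130246, top 88.9%). The other SCI peak lay 35.5 kb upstream and scored 7.69 (top 46.1%). All 4 peaks of Cdkn1a thus ranked outside the top 40% of their lists.

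Cdkn1b, which encodes p27 (ID 12576, chromosome 6, 134920401 to 134925525), had 7 sham and 2 SCI peaks and no shared position. Its nearest sham peak, at 134928262 to 134928451, lay 2.83 kb outside and scored 7.00 (top 60.8%). The highest, at 134937525 to 134937714, lay 12.1 kb outside, inside the noncoding gene Lockd, and scored 19.0 (top 9.97%). The SCI peaks were 37.9 and 42.8 kb away and scored 5.20 and 7.90.

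**Figure D3:**
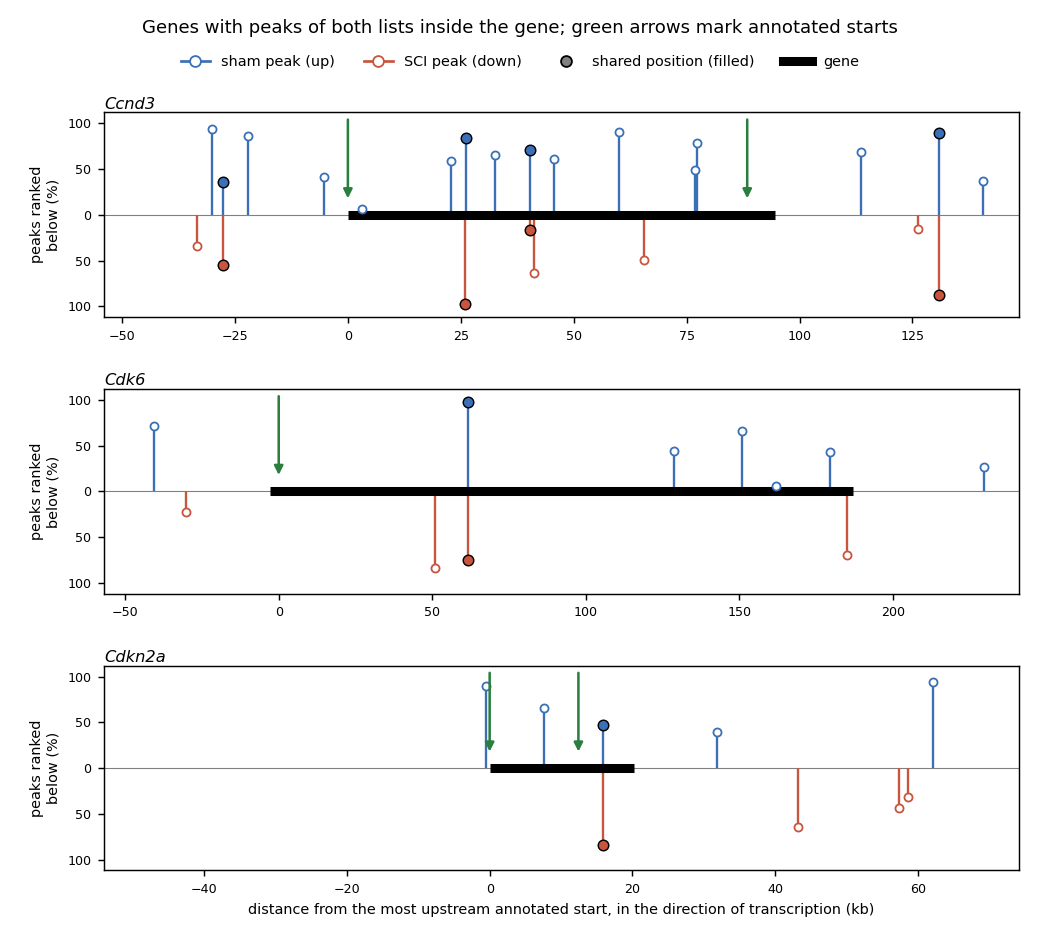
The 3 genes with peaks of both lists inside the gene, drawn in the direction of transcription with distance in kb from the most upstream annotated start (green arrows, starts in the promoter table). Stems are as in the map of all genes, and the sham stem 463 bp upstream of the first Cdkn2a start has no SCI stem opposite.

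Over the 10 genes, 73.9% of the sham and 74.2% of the SCI peaks lay outside the gene they were assigned to, and 72.2% of the summed window length lies outside the genes. The share outside is thus close to that of the window itself. In sham, 18 peaks were inside 5 of the genes (Ccnd1, Ccnd3, Ccne1, Cdk6 and Cdkn2a), and of the 51 outside, 34 had their centre in another gene. In SCI, 8 peaks were inside 3 genes (Ccnd3, Cdk6 and Cdkn2a), and 11 of the 23 outside were in another gene. Peaks centred in another gene were not counted around all protein-coding genes, so the 34 and the 11 have no background. Sham peaks lay inside 51.0% of all protein-coding genes and SCI peaks inside 33.4%. Of the peaks outside, 4 sham and 0 SCI peaks lay 5 kb or less from the gene, a zone that makes up 10% of the flanks. At the edge of the window, 7 sham peaks lay 45 to 50 kb outside and 2 lay 50 to 55 kb outside. The last included, at Cdkn1b, was 49.1 kb away with a score of 15.7. The 2 left out were at Ccnd2 (51.0 kb, score 6.86) and Ccne2 (52.2 kb, score 34.6). In SCI no peak lay 45 to 50 kb outside, and those left out at Cdk4 (51.6 kb) and Ccne1 (52.4 kb) scored 9.80 and 7.94.

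Positions with a peak in both lists, by an overlap of at least 1 bp, were found at 7 of the 10 genes, and Ccnd2, Ccne2 and Cdkn1b had none. Of all protein-coding genes, 41.5% had such a position in the window, a share not matched for gene length. There were 10 positions, of which 4 belonged to Ccnd3 and 1 each to Ccnd1, Ccne1, Cdk4, Cdk6, Cdkn1a and Cdkn2a. They made up 14.5% of the 69 sham peaks (95% exact binomial interval 7.17 to 25.0%) and 32.3% of the 31 SCI peaks (16.7 to 51.4%). Among all peaks within 50 kb of protein-coding genes, 9.34% of sham and 23.0% of SCI peaks were shared, which lies inside both intervals. These intervals cover counting error only. With at least 50% of both peaks in the overlap, 6 of the 10 positions remained. Sharing among all peaks near protein-coding genes was not counted under this stricter rule.

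The order of the shared positions differed between the lists. The position stood higher by rank in sham in 6 of 10 cases and higher in SCI in 4. It stood within the top 20% of both lists at 2 positions, both at Ccnd3. The same counts were not made over all shared positions, so they are not read as a trait of these genes. The ranks lay farthest apart at Ccnd1 (top 9.77% in sham, top 82.9% in SCI). Cdkn2a had the opposite order, with top 52.9% in sham and top 15.5% in SCI. Ranks come from separate lists of unequal length, so neither a change in binding nor its absence can be read from them.

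**Figure D4:**
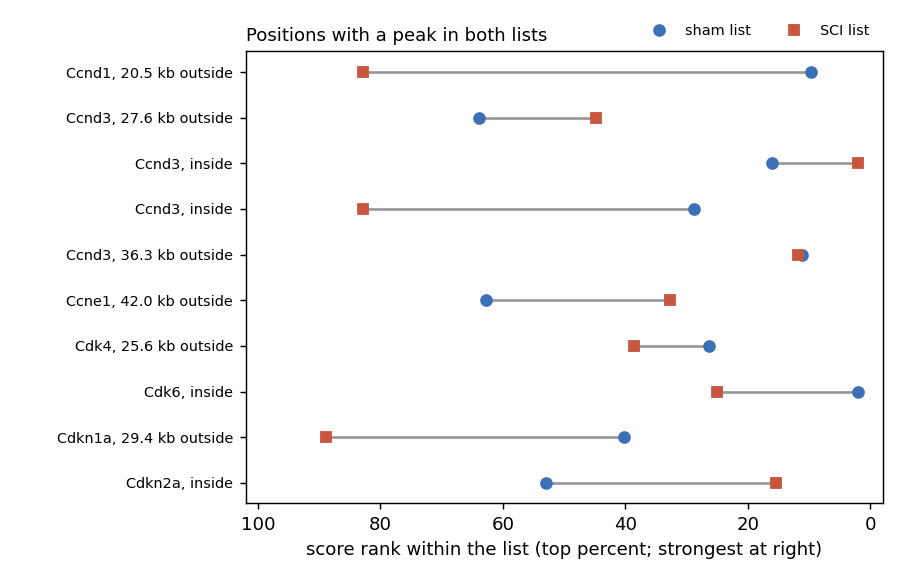
Score rank, as the top percent of its own list, of the 10 shared positions in sham (circles) and SCI (squares), with the strongest ranks at the right. The Ccnd3 position 36.3 kb outside the gene has nearly equal ranks of 11.1 and 11.9%, and the Ccnd1 position has 9.77 and 82.9%.

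Peaks ranked in the top 10% of their list were present at 8 of the 10 genes in sham and at 3 in SCI, against 45.0% and 22.5% of all protein-coding genes. The top 10% of the longer sham list holds more peaks, so both counts are to be read against their own background. Neither background was matched for gene length or for the number of peaks per gene. In sham, 13 of 69 peaks (18.8%) ranked there, against 10.7% of all peaks near protein-coding genes. Of these 13, 2 were shared with SCI, at Ccnd1 and Cdk6. In SCI, 3 of 31 peaks (9.68%) ranked in the top 10%, at Ccnd1, Ccnd3 and Ccne1, against 10.5%, and the one at Ccnd3 was shared. The shared part of all peaks ranked in the top 10% was not counted for either list. No interval was computed for the 18.8% or the 9.68%, so neither is read as a difference from its background. The median score was 9.14 at these genes in sham, against 8.18 near all protein-coding genes, and 7.82 in SCI, against 7.48. The lowest score, 5, was held by 5 sham peaks and 1 SCI peak. The deposited −log10 value in the place of a q-value ran from 3.27 to 4.05 in sham and from 3.22 to 4.36 in SCI at these genes.

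By class, the D-type cyclin genes had the densest peaks. Per 100 kb of window they held 6.72 sham and 2.78 SCI peaks, the inhibitors 4.18 and 2.39, the E-type cyclins 4.47 and 1.79, and the kinases 4.06 and 1.78. The D-type value rests on unlike genes, with 3.64 sham and 3.64 SCI peaks per 100 kb at Ccnd1, 7.09 and 0 at Ccnd2, and 8.22 and 4.11 at Ccnd3.

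Around these genes, 30 other regulators of the step from G1 to S phase were counted by the same rule. Sham peaks were present at all 30 and SCI peaks at 25, against the background of 95.6% and 84.2% of protein-coding genes. The median was 7.5 sham and 2.5 SCI peaks per gene, against 5 and 2 over all protein-coding genes. A shared position was found at 18 of the 30, against 41.5% of all protein-coding genes. None of these backgrounds was matched for gene length, and longer genes have wider windows. The 5 without an SCI peak, named after their values were seen, were Cdk7, the kinase that activates other cyclin-dependent kinases, the ubiquitin ligase subunit Skp2, and E2f5, E2f6 and E2f8. Cdkn2b lies beside Cdkn2a, so they share peaks.

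The highest sham peaks of this list were assigned to Myc, Mnat1, Tfdp1 and E2f2. The peak at Myc, a transcription factor that drives growth, lay 12.6 kb outside on chromosome 15 (62002961 to 62003052) and scored 51.6 (top 0.311%). This peak was narrower than the usual 190 bp of the sham list. That of Mnat1, a partner of the kinase Cdk7, lay 47.4 kb outside the gene, near the edge of the window, and scored 37.8 (top 1.16%). That of Tfdp1, a dimer partner of E2F factors, lay inside the gene and scored 36.1 (top 1.38%), and that of E2f2 lay 22.3 kb outside and scored 34.3 (top 1.69%).

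In SCI the highest peak of the list lay 0.948 kb outside Rbl2, a relative of the retinoblastoma gene, on chromosome 8 (91124749 to 91124834), and scored 38.9 (top 0.215%). A sham peak at 91124632 to 91124821 (score 28.1, top 3.44%) overlapped it. Tfdp1 (score 26.3, top 1.24%), Tfdp2 (score 24.8, top 1.56%) and Fbxw7, a ubiquitin ligase subunit that marks cyclin E for destruction (score 21.5, top 2.71%), followed, each with the SCI peak inside the gene. The SCI peaks at Rbl2 and Tfdp2 were narrower than the usual 164 bp of the list.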

How the data were processed

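Per the submitters' processing notes, the reads were mapped to mm10 with Bowtie2. The peak caller and its settings are not given in these sources. Each deposited peak has a score, the authors' own value, of at least 5, and a −log10 value, the authors' measure in the place of a q-value. Read depth is unknown, and the input libraries were not analysed here. Each list was matched to its sample by title. Only chromosomes 1 to 19, X and Y entered, with positions counted from 1. Ranks were taken within a list, and ties got the highest rank. Genes and promoters came from RefSeq GRCm38.p6, and the gene table has no strand and no exons, so strand is known only through the promoter table. No comparison between conditions was tested. The text names all 10 genes, their highest, nearest and shared peaks, and the 4 best-ranked other genes per list. The members and lists were chosen with earlier results of these data known. Counting and overlap were tested on simulated data. Alternatives were 3 windows, a score threshold, equal list lengths and 3 overlap rules. The software was matplotlib 3.10.9, scipy 1.17.1, pandas 2.3.3, numpy 2.4.6 and Python 3.11.15.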

Additional observations from a re-analysis of the deposited data

How the results depend on the processing

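The counts of peaks at the 10 genes moved with the window and the score, while the counts of genes with a peak moved less. The 69 sham peaks became 22 with a window of 5 kb, 26 with 10 kb and 119 with 100 kb, 38 among scores not below the list median and 34 with lists of equal length. The 31 SCI peaks became 8, 11 and 50 with these windows and 17 among scores not below the median. Genes with an SCI peak fell from 9 to 3 with a window of 5 kb and lay between 6 and 10 under the other settings. Genes with a sham peak lay between 8 and 10 under all of them. Under these other settings the share of all protein-coding genes with a peak was not reported. The counts of genes there thus have no background and are not read as a trait of these genes. The shared percent stayed inside the interval of the reported value in both lists under every setting tried, from 8.70 to 20.6% in sham and from 19.4 to 50% in SCI. No paired analysis was possible because each condition has 1 library. Unknown depth limits every absence: a gene without a peak may lie below the threshold of the list. Peaks were not filtered by input signal or for artefact-prone regions, and no motif search in the peaks was made.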

Other observations

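Some scores in both lists have a special form: adding 1, dividing by 2 and squaring gives a whole number (to within 0.0001), and the lowest score of 5 has this form. At the 10 genes 11 of 69 sham peaks and 5 of 31 SCI peaks had it, against 22.9% and 33.1% of the whole lists. Of these, 0 sham peaks and 1 SCI peak, the one inside Cdkn2a, was shared. In the whole lists the shared part of such peaks was 0.727% in sham and 4.82% in SCI.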
